A study of Mus musculus with 9 samples.

Results

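Cytosolic ribosomal protein genes encode the proteins that, together with ribosomal RNA, make up the ribosome in the cytoplasm. They were followed here in mouse T cells that had been driven to the Th1 or the Th17 fate of T helper cells, or from Th17 to Th1. The genes were taken from the expression table by symbol: Rpl or Rps followed by a digit, Rplp or Rpsa, with pseudogene rows (-ps) and the S6 kinase genes left out. The rule found 86 genes among 22017 rows. Of these, 77 are the core set present in ribosomes of most cells, 46 of the large subunit and 31 of the small subunit. The other 9 are paralogs or look-alikes (Rpl3l, Rpl7l1, Rpl10l, Rpl22l1, Rpl36al, Rpl39l, Rps27l, Rps27rt and Rps19bp1). Rps19bp1 encodes a nuclear protein named for binding Rps19 and is not a ribosome component, although its symbol matches.

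The study holds 9 messenger RNA libraries, 3 in each of 3 groups, from wild-type T cells of C57BL/6 mouse spleens. All groups were activated with anti-CD3 and anti-CD28 for 3 days, moved into IL-2 at 100 U/mL on day 5, given a second, weaker activation (each antibody at 0.05 ug/mL, with IL-2) at day 7, and harvested on day 10. Th1 cells received IL-12 (10 ng/mL) and anti-IL-4 throughout. Th17 cells received TGF-b (1 ng/mL), IL-6 (20 ng/mL), IL-1b (10 ng/mL) and antibodies against IFN-g, IL-12 and IL-4 throughout. Th17-derived Th1 cells were first grown as Th17 cells and then moved to the Th1 condition at the second activation. The labels do not say whether the 3 libraries of a group came from separate mice or cultures, so p-values here reflect the spread among these libraries, which may be technical.

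A ribosome has a small subunit, which reads the messenger RNA, and a large subunit, which forms the peptide bonds. Their proteins are needed in near-equal numbers, and the messenger RNAs of most of them begin with a C followed by a run of pyrimidines, the 5′ terminal oligopyrimidine (TOP) tract, through which mTORC1 and LARP1 control their translation. In T cells, activation is followed by growth and by a large rise in protein synthesis. Translation and protein were not measured here: the values are messenger RNA levels in FPKM, fragment numbers divided by transcript length and by the total of mapped fragments, so that levels can be compared between genes.

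The fate markers were read first. Summed Ifng and Tbx21 ranged from 1098 to 2081 FPKM in Th1, from 765 to 1014 in Th17-derived Th1 and from 20.5 to 53.1 in Th17 libraries, while Il17f was at 8.77, 7.62 and 7.58 FPKM in Th17 and at most 0.408 elsewhere. Summed markers of T cells (6 of 6 detected) were 865 to 1083 FPKM, against at most 4.09 for B cells and 0.652 for erythroid cells, with Hbb-bs and Hbb-bt at 0 in all groups. Summed macrophage markers ranged from 3.75 to 11.95 FPKM in Th1, from 1.45 to 2.92 in Th17 and from 3.62 to 6.78 in Th17-derived Th1, with 5 of 5 genes in the table and Adgre1 and Csf1r at 0 in Th1. Summed dendritic cell markers were 3.39 to 6.11, 1.03 to 2.09 and 1.84 to 4.17 FPKM in the same order, with Flt3 and Siglech at 0 in all groups. Both sums were higher in every Th1 library than in every Th17 library, as were neutrophil sums (2.27 to 3.05 against 0.0761 to 0.745 FPKM). B cell and natural killer cell sums went the other way. They were 0.957 to 2.11 and 3.23 to 7.12 FPKM in Th1, against 3.10 to 4.09 and 7.31 to 17.7 in Th17. The part of these cells in the comparisons was not tested. Neutrophil markers reached 34.7 FPKM in Th17-derived Th1, from Ly6g alone, with S100a8, S100a9, Mpo and Elane at 0, and natural killer cell markers reached 17.7 in Th17. The CD8 markers Cd8a and Cd8b1 were present throughout, at a sum of 19.8 to 203 FPKM. Replicate 3 had the most Cd8a in each group (117, 141 and 104 FPKM in Th1, Th17 and Th17-derived Th1). Cd4 was at 57.1, 52.9 and 96.9 FPKM in these libraries, below Cd8a in each, and above Cd8a in every other library. The cultures were thus not of CD4 cells alone. The total FPKM per library lay between 382581 and 405985. The read depth behind the values is unknown, because the table gives no counts and its low values showed no steps from which reads could be recovered.

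To show how the 5′ ends of these genes look, a few annotated starts are printed, each with 20 bases before and 20 from the start onwards, read 5′ to 3′ (RefSeq, GRCm38.p6). Capitals mark a C-led run of at least 5 pyrimidines beginning within 10 bases of the start, and no capitals means no such run in that window. The genes chosen are the most persistent higher and lower members of the comparison of Th1 with Th17 (Rpl22l1 and Rpl12), the paralog partner Rpl22, the S6 kinase target Rps6, and Rpl41, the shortest.
Rpl12, chr2:32961692-32961731, plus strand: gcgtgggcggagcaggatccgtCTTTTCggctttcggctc
Rpl22l1, chr3:28805488-28805527, plus strand: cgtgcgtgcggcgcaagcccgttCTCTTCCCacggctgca
Rpl22, chr4:152325706-152325745, plus strand: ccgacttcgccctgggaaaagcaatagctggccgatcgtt
Rps6, chr4:86857348-86857387, minus strand: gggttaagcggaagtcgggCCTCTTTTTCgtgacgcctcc
Rpl41, chr10:128549149-128549188, minus strand: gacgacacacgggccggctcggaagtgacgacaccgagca

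A promoter window was held for 66 of the 86 genes, 57 of them core. Such a C-led run stood near the start of 31 of the 57 core genes (54.4%), against 32.4% of 8302 other tested genes and 30.8% of all 27025 promoters in the table. In the window from 250 bases before to 50 after the start, with both strands read, CCGGAAG (a core of ETS-family sites) was found in 40.4% of the 57, against 20.7% of other tested genes and 9.12% of all promoters. ATGGCG, the core of the YY1 site, was found in 26.3%, 17.1% and 9.24%. TATAAA was found in 8.77%, 6.40% and 14.2%, and the E-box CACGTG in 8.77%, 10.6% and 7.24%. None of the fixed letter runs contains another. Read on the other strand, however, the ETS-family core holds a C-led run of 5 pyrimidines. Near a start the same bases can therefore count for both, so the C-led and ETS-family percentages are not separate. A match describes the sequence and does not show a site in use, and annotated starts can lie some bases away from the start used in these cells.

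Ribosomal protein transcripts were among the most abundant in every library. They made up 10.98%, 11.66% and 11.61% of all FPKM in the Th1 libraries, 12.76%, 12.97% and 11.72% in Th17, and 11.98%, 11.71% and 11.76% in Th17-derived Th1. The share was 11.4% ± 0.377 (SD, n = 3) in Th1, 12.5% ± 0.669 in Th17 and 11.8% ± 0.140 in Th17-derived Th1. The Th1 and Th17 ranges did not overlap but came within a narrow margin of each other, since Th17 replicate 3 stood below the other Th17 libraries, and the Th17-derived libraries lay just above all Th1 libraries and overlapped Th17. In bulk RNA a smaller share of cells rich in these transcripts and less of them per cell cannot be told apart.

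**Figure D1:**
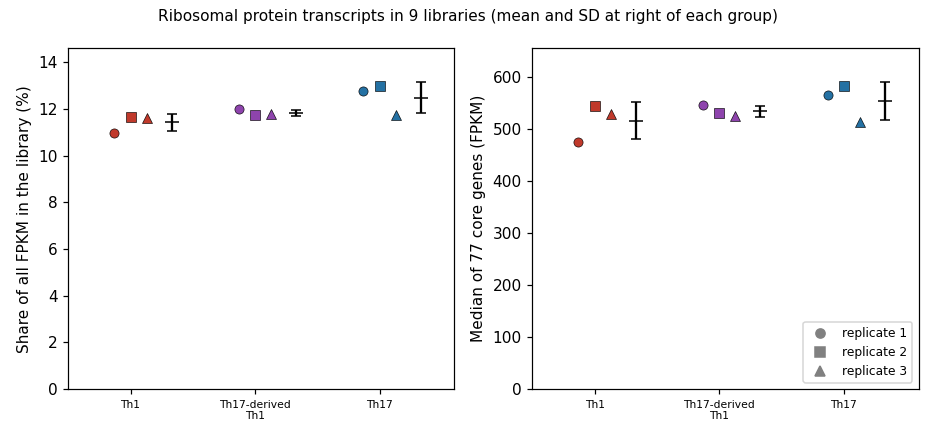
Left, share of all FPKM taken by the 86 ribosomal protein genes (percent), and right, median FPKM of the 77 core genes, for each library (points, shape by replicate), with the group mean and SD. Shares run from 10.98% to 12.97%, with Th1 replicate 1 lowest and Th17 replicate 2 highest; Th17 replicate 3 lies near the Th1 libraries.

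The median core gene stood at 517 ± 35.9 FPKM in Th1, 554 ± 35.8 in Th17 and 534 ± 11.02 in Th17-derived Th1 (mean of library medians ± SD, n = 3). Large and small subunit genes kept step. The summed FPKM of large over small subunit core genes was 1.31 ± 0.0109 in Th1, 1.30 ± 0.0158 in Th17 and 1.31 ± 0.00385 in Th17-derived Th1, a ratio that does not change when a library is multiplied by a constant.

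Among the 77 core genes, mean levels over the 9 libraries ran from 53.03 FPKM (Rpl21) to 1626 (Rplp0), with a median of 526 against 12.97 over all tested genes. By mean level, 40 of the 86 genes were among the 100 highest in the table and 76 among the 500 highest, and 73 of the 77 core genes exceeded 100 FPKM in all 9 libraries. The 5 highest were Rplp0 (1626 FPKM) and Rplp1 (1498), both of the stalk that recruits elongation factors, Rpl13a (1352), Rpsa (1231) of the small subunit, which is also known as the laminin receptor, and Rps3a1 (1222). The 5 lowest core genes were Rpl21 (53.03), Rpl38 (106), Rps15a (109), Rps20 (135) and Rps29 (151). Since the proteins are needed in near-equal numbers, this range is one of transcript values only; many of these genes have processed pseudogenes in the genome, whose sequence can share reads with the parent, and how such reads were counted is not given in the sources used here.

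Replicates lay close together for most members. The pooled within-group SD of log2(FPKM + 1) had a median of 0.0814 over the 77 core genes, against 0.171 over all 10538 tested genes and 0.160 over the 1278 other genes at least as abundant as the lowest core gene. Those other genes were not matched to the core genes by level beyond this lower bound of 53.03 FPKM, against a core median of 526. Among members the SD was smallest for Rpl4 (0.0309), Rps6 (0.0328), Rpl8 (0.0347) and Rplp0 (0.0358). It was largest for Rpl22 (0.527), Rps27 (0.495), Rpl17 (0.467), Rpl38 (0.454) and Rps15a (0.406). Rpl38, a small protein near the tunnel exit whose loss in mice is known to alter the axial skeleton, was at 50.2, 138 and 110 FPKM in the Th1 libraries but between 88.0 and 121 in the other 6. For such members the replicate spread is wider than most group differences of the set.

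In several libraries the deviations of the members were ordered by coding length. Relative to each gene's group mean, the 21 core genes with the shortest coding sequence (up to 375 bases) stood at a median of -0.181 on the log2 scale in Th1 replicate 1, -0.186 in Th17 replicate 3 and -0.0808 in Th17-derived Th1 replicate 3. The 21 longest (612 bases or more) stood at -0.0313, -0.0321 and 0.0351 in the same libraries. In the other 6 libraries the short genes lay above the group mean, by 0.009 to 0.108. As a description over 77 genes of one library, Spearman's rho of deviation with coding length was 0.622, 0.573 and 0.546 in those 3 libraries and between -0.228 and -0.4998 in the other 6. The deviations of a gene balance out within its group, so a low library by itself raises the others of that group. The opposite sign in the other 6 libraries is therefore not a separate observation. One library in each group thus had fewer short ribosomal transcripts relative to long ones. Its part in the differences between groups is addressed below by leaving out Th1 replicate 1 and Th17 replicate 3.

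**Figure D2:**
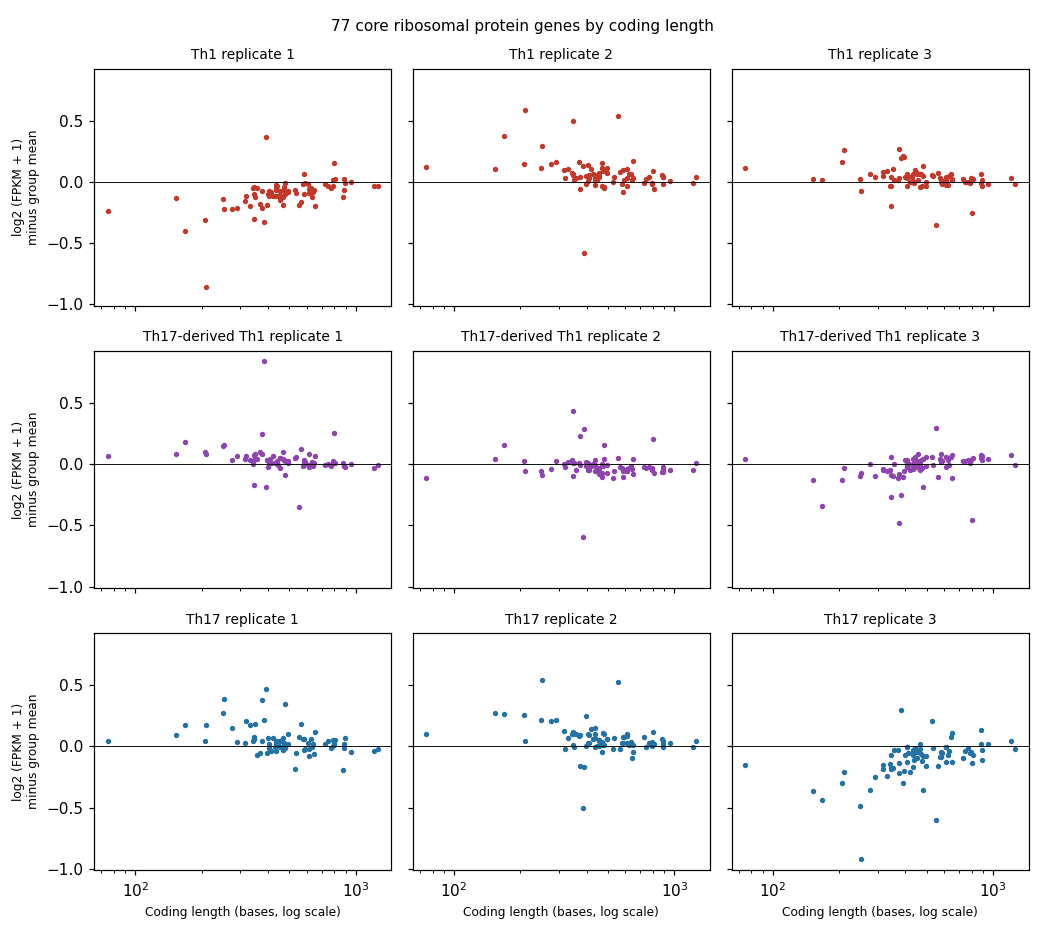
Deviation of each of the 77 core ribosomal protein genes (points) from its group mean, as log2(FPKM + 1), against coding length in bases (log axis), with 1 panel per library. The points slope upward with length in Th1 replicate 1, Th17 replicate 3 and Th17-derived Th1 replicate 3, where Spearman's rho was 0.622, 0.573 and 0.546, and downward in the other 6 libraries. The downward slopes follow in part from taking deviations from the group mean.

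The first comparison asked which members differ between Th1 and Th17 cells. Of the 86 genes, 83 reached 1 FPKM in at least 3 libraries and were tested with limma on log2(FPKM + 1), with Benjamini-Hochberg adjustment over all 10538 tested genes and a threshold of 0.05. Rpl3l, Rpl10l and Rpl39l, paralogs known from muscle and testis, did not reach it, with highest values of 0.0582, 0.111 and 0.964 FPKM. In Th1 cells 5 members were higher (Rpl22l1, Rpl41, Rps2, Rpl29 and Rpl27a) and 8 were lower (among them Rps27rt, Rpl12, Rpl18, Rps7, Rpl8 and Rps6), and 70 did not pass. That is 15.7% of the members tested, against 42.9% of all tested genes, 14.0% higher and 28.9% lower. The libraries of the 2 groups did not overlap for 25 members (4 higher and 21 lower), 30.1% of those tested, against 52.9% of all tested genes. The counts rested on single libraries: 3 members were higher without Th1 replicate 2 or either of Th17-derived Th1 replicates 1 and 2, 2 without Th17 replicate 2 or 3, and 1 without Th1 replicate 3 or Th17 replicate 1. Lower members numbered 3 without Th17 replicate 1, 4 without Th17 replicate 2, 5 without Th1 replicate 1 and 17 without Th17 replicate 3.

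The differences were small. The log2 difference lay within 0.2 of 0 for 61 of 83 members (73.5%), against 31.2% of all tested genes, and its 95% interval lay within 0.5 of 0 for 61 members (73.5%), against 29.6%. Of the 77 core genes 4 were higher and 7 lower, and by subunit 3 and 4 of 46 in the large and 1 and 3 of 31 in the small. The 78 mitochondrial ribosomal protein genes, which serve a separate ribosome and were all tested, had 3 higher and 17 lower, with 33 of 78 (42.3%) within 0.2. Their median difference was -0.172.

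The direction of the set as a whole depended on how the libraries were scaled. With the deposited values the median difference of the members was -0.074, against -0.169 over all tested genes, with 28 members above 0 and 55 below. With equal FPKM sums the members' median was -0.133, with 1 higher and 18 lower; with quantile normalization it was -0.212, with 2 higher and 38 lower; with median-ratio scaling it turned to 0.098, with 14 higher and 2 lower. The median of all genes moved from -0.169 to -0.0144 under median-ratio scaling and to -0.0674 under quantile normalization, and the share of higher genes among all called genes moved from 32.7% to 53.9% and 45.6%. The sign of a general difference of ribosomal protein transcripts was thus not the same under all 4 scalings. Each of the 13 called members kept its sign in all of them. They were chosen as passing on the deposited values, however, so a change of sign was unlikely from the outset. Rpl12, Rpl22l1 and Rps27rt passed under all 4 scalings, and each other called member did not pass under at least 1.

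**Figure D3:**
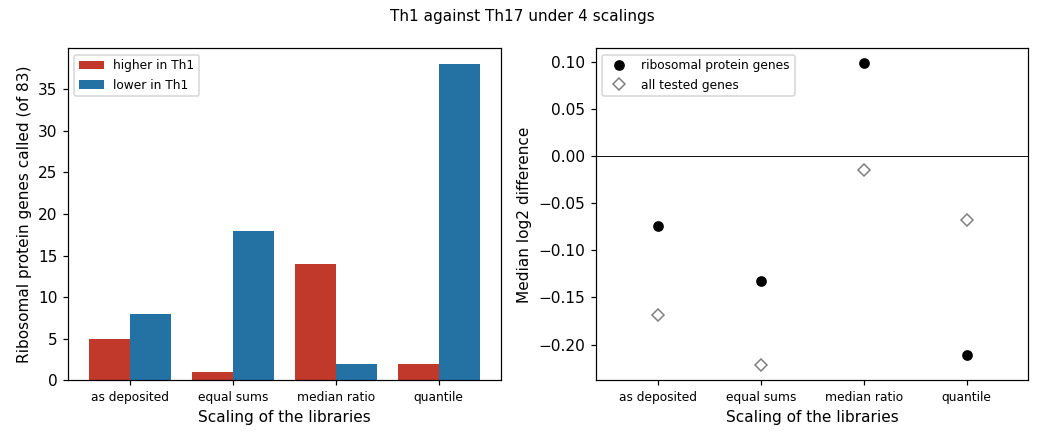
Th1 against Th17 under 4 scalings of the libraries: left, number of the 83 tested ribosomal protein genes called higher (red) or lower (blue) in Th1; right, median log2 difference of the members (filled) and of all tested genes (open). The members' median is below 0 with deposited values, equal sums and quantile normalization, and above 0 (0.098) with median-ratio scaling.

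The members were therefore also compared after subtracting from each library its median log2 value of the core genes, which asks whether a member moves against the rest of the ribosome. In that fit 7 members were higher in Th1 (Rpl22l1, Rps27l, Rpl41, Rps2, Rpl29, Rpl27a and Rps19) and 2 were lower (Rps27rt and Rpl12), against 30.5% of all genes called. The subtracted median comes from the members themselves, so their differences are centred near 0 by construction and those of other genes are not. In every comparison the share of all genes called in this fit is therefore not a like measure. Rps19, the gene first linked to Diamond-Blackfan anemia, stood at 684, 700 and 696 FPKM in Th1 and at 625, 685 and 547 in Th17, so the groups overlapped in a single Th17 library. Its centred difference was 0.271 (adjusted p = 0.0459), against 0.169 (adjusted p = 0.148) without centring. The count of members off the ribosomal median ranged from 1 (without Th17 replicate 1) to 12 (without Th17 replicate 3) when a single library was left out, and was also under 6 without Th1 replicate 1 (5), Th1 replicate 3 (2) or Th17 replicate 2 (4).

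Among the stalk genes, which form the flexible arm of the large subunit that activates elongation factors, Rpl12 stood apart. Rpl12 (chromosome 2, 32961559 to 32965345, GRCm38) binds the base of the stalk. It was at 403, 460 and 415 FPKM in Th1, 617, 598 and 516 in Th17 and 484, 474 and 470 in Th17-derived Th1. All Th1 libraries lay below all Th17-derived libraries, and these below all Th17 libraries. Its difference of Th1 from Th17 was -0.43 on the log2 scale (SE 0.0891, adjusted p = 0.00502, limma), and -0.33 against the ribosomal median (adjusted p = 0.0167). This call held in every alternative run, with adjusted p of at most 0.0448. The other stalk genes Rplp0, Rplp1 and Rplp2 did not pass. Rplp0 was at 1652, 1653 and 1633 FPKM in Th1 and 1592, 1683 and 1668 in Th17, a difference of -0.001 with a 95% interval from -0.143 to 0.141. Rplp1 and Rplp2 differed by -0.097 and -0.147 (adjusted p = 0.362 and 0.232).

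Rpl22 and Rpl22l1 are paralogs of which 1 copy is placed on the large subunit near the tunnel exit. Rpl22 is known to be needed for alpha-beta T cell development in mice, and Rpl22 protein is known to hold down Rpl22l1 RNA. Their coding sequences share 264 of 363 aligned bases (72.7%). Rpl22l1 (chromosome 3, 28805436 to 28807424) was at 115, 126 and 131 FPKM in Th1, 86.4, 93.7 and 96.5 in Th17 and 89.1, 78.3 and 96.3 in Th17-derived Th1. Every Th1 library exceeded every other library. The difference of Th1 from Th17 was 0.42 (SE 0.0987, adjusted p = 0.00910), and 0.52 against the ribosomal median (adjusted p = 0.00939); the uncentred call held in every alternative run, with adjusted p of at most 0.0420.

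Rpl22 itself varied more between replicates than any other core gene. It was at 152, 209 and 219 FPKM in Th1, 183, 111 and 194 in Th17 and 248, 91.3 and 116 in Th17-derived Th1. The groups overlapped throughout, and the difference of Th1 from Th17 was 0.27 with a 95% interval from -0.528 to 1.08 (adjusted p = 0.555). The ratio of Rpl22l1 to Rpl22 was 0.650 ± 0.0888 in Th1, 0.604 ± 0.208 in Th17 and 0.681 ± 0.280 in Th17-derived Th1 (SD, n = 3), with each difference between groups smaller than the spread.

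Rps27 encodes a zinc-binding protein of the small subunit, and the table holds 2 more rows of its kind. Rps27rt (chromosome 9, 114982366 to 114982739) is a retrotransposed copy of Rps27 (chromosome 3, 90212522 to 90213651), while Rps27l (chromosome 9, 66946086 to 66949516) is a paralog known as a target of p53. Their first 60 coding bases are printed from GENCODE transcripts because they show what reads can tell apart; capitals mark bases that differ from Rps27.
Rps27: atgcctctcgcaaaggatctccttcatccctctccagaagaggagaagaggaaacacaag
Rps27rt: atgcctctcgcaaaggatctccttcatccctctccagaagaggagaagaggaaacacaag
Rps27l: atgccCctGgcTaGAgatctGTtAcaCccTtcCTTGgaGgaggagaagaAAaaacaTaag

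Over the whole coding sequence Rps27 and Rps27rt were identical at 252 of 252 bases, and Rps27l matched at 192 of 252 (76.2%). Reads from the coding sequence therefore cannot separate Rps27 from Rps27rt, and the values of both rows are uncertain. Rps27rt was at 72.8, 60.7 and 79.2 FPKM in Th1, 151, 99.9 and 161 in Th17 and 72.1, 106 and 57.6 in Th17-derived Th1. All Th1 libraries lay below all Th17 libraries, a difference of -0.92 (SE 0.240, adjusted p = 0.0142), which did not pass without Th17 replicate 1 or without both Th1 replicate 1 and Th17 replicate 3 (adjusted p up to 0.0892).

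Rps27 was at 206, 295 and 228 FPKM in Th1, 431, 480 and 173 in Th17 and 395, 333 and 338 in Th17-derived Th1. Its Th17 replicate 3, the lowest of all 9, was the library with the highest Rps27rt. Rps27rt took 48.2% of the summed pair there, against 14.6% to 26.1% in the other 8 libraries. The sum of the pair was 314 ± 39.0 FPKM in Th1, 498 ± 142 in Th17 and 434 ± 35.8 in Th17-derived Th1 (SD, n = 3). The Th1 and Th17 sums overlapped, at 279 to 356 and 334 to 582 FPKM.

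Rps27l was at 108, 172 and 130 FPKM in Th1, 107, 86.4 and 109 in Th17 and 130, 125 and 104 in Th17-derived Th1. Its difference of Th1 from Th17 was 0.42 with a 95% interval from 0.030 to 0.809, and it did not pass (adjusted p = 0.0772), while it passed against the ribosomal median (0.52, adjusted p = 0.0369).

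Among the other large subunit genes, Rpl18 and Rpl8 were lower in Th1. Rpl8 (chromosome 15, 76904078 to 76906314), a core protein beside the peptidyl transferase centre, was at 998, 1062 and 1032 FPKM in Th1, 1236, 1276 and 1237 in Th17 and 1113, 1109 and 1152 in Th17-derived Th1. The 3 groups did not overlap, and the difference of Th1 from Th17 was -0.28 (SE 0.0633, adjusted p = 0.00795). Rpl18, a further gene linked to Diamond-Blackfan anemia, was at 425, 501 and 500 FPKM in Th1 and 706, 613 and 555 in Th17, a difference of -0.39 (SE 0.113, adjusted p = 0.0219). Rpl8 passed whichever single library was left out, but not under median-ratio scaling and not against the ribosomal median. Rpl18 did not pass under median-ratio scaling (-0.22) or without Th1 replicate 1, Th17 replicate 1 or Th17 replicate 2.

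In the small subunit, 1 gene of the 17 tested in its body and platform rose and 3 fell (23.5%), and 0 of 14 genes of the head passed (limma, 1 with an unadjusted p below 0.05), against 42.9% of all tested genes. Whether body and head differ was not tested. Against the ribosomal median 1 gene of the body (Rps2) and 1 of the head (Rps19, which is linked to Diamond-Blackfan anemia) were higher, and 0 of either were lower. Rps7, linked to Diamond-Blackfan anemia and known to bind MDM2, was at 496, 570 and 530 FPKM in Th1 and 683, 666 and 617 in Th17 (-0.30, SE 0.0794, adjusted p = 0.0145). Rps6, the protein phosphorylated by S6 kinase downstream of mTORC1, was at 1071, 1112 and 1094 FPKM in Th1 and 1284, 1243 and 1217 in Th17. It was the smallest difference that passed (-0.19, SE 0.0628, adjusted p = 0.0352). In both genes every Th1 library lay below every Th17 library. Rps7 did not pass under median-ratio scaling (-0.13) or without Th17 replicate 1 or 2. Rps6 passed in 3 of 9 fits that left out a library. It did not pass under median-ratio scaling (-0.019), with a loose filter on low values (above 0 FPKM), with only the 2 groups compared or without the 3 libraries that held the most Cd8a. With the replicate number as a block, Rps6 did not pass either.

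The 4 core genes higher in Th1 had less firm calls. Rpl27a was at 534, 583 and 616 FPKM in Th1 and 491, 486 and 482 in Th17 (0.25, SE 0.0755, adjusted p = 0.0276). Rpl29 was at 408, 397 and 423 FPKM in Th1 and 341, 369 and 326 in Th17 (0.25, SE 0.0777, adjusted p = 0.0300). Rps2, at the entry of the messenger RNA channel, was at 1149, 1302 and 1312 FPKM in Th1 and 890, 1061 and 1121 in Th17 (0.30, SE 0.1004, adjusted p = 0.0397). In these 3 genes the groups did not overlap. Rpl41, whose coding sequence of 75 bases is the shortest of the set, was at 575, 739 and 733 FPKM in Th1 and 556, 578 and 485 in Th17 (0.33, SE 0.117, adjusted p = 0.0453), with the lowest Th1 library just below the highest Th17 library.

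None of these 4 passed with libraries scaled to equal sums or with only the 2 groups compared, and of the 4 Rps2 alone passed after quantile normalization. Rpl29 and Rpl41 also did not pass with the replicate number as a block. The 4 calls passed in 5, 5, 3 and 1 of the 9 fits that left out a library, in the order Rpl27a, Rpl29, Rps2 and Rpl41. None of the 4 passed without Th1 replicate 3 or without Th17 replicate 1, and none passed without the 3 libraries that held the most Cd8a, where 1 member (Rpl22l1) remained higher and 10 were lower. The part of CD8 cells in these calls was not tested. Without Th1 replicate 1 and Th17 replicate 3, the libraries of these groups with fewer short transcripts, 5 members were higher and 9 lower.

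**Figure D4:**
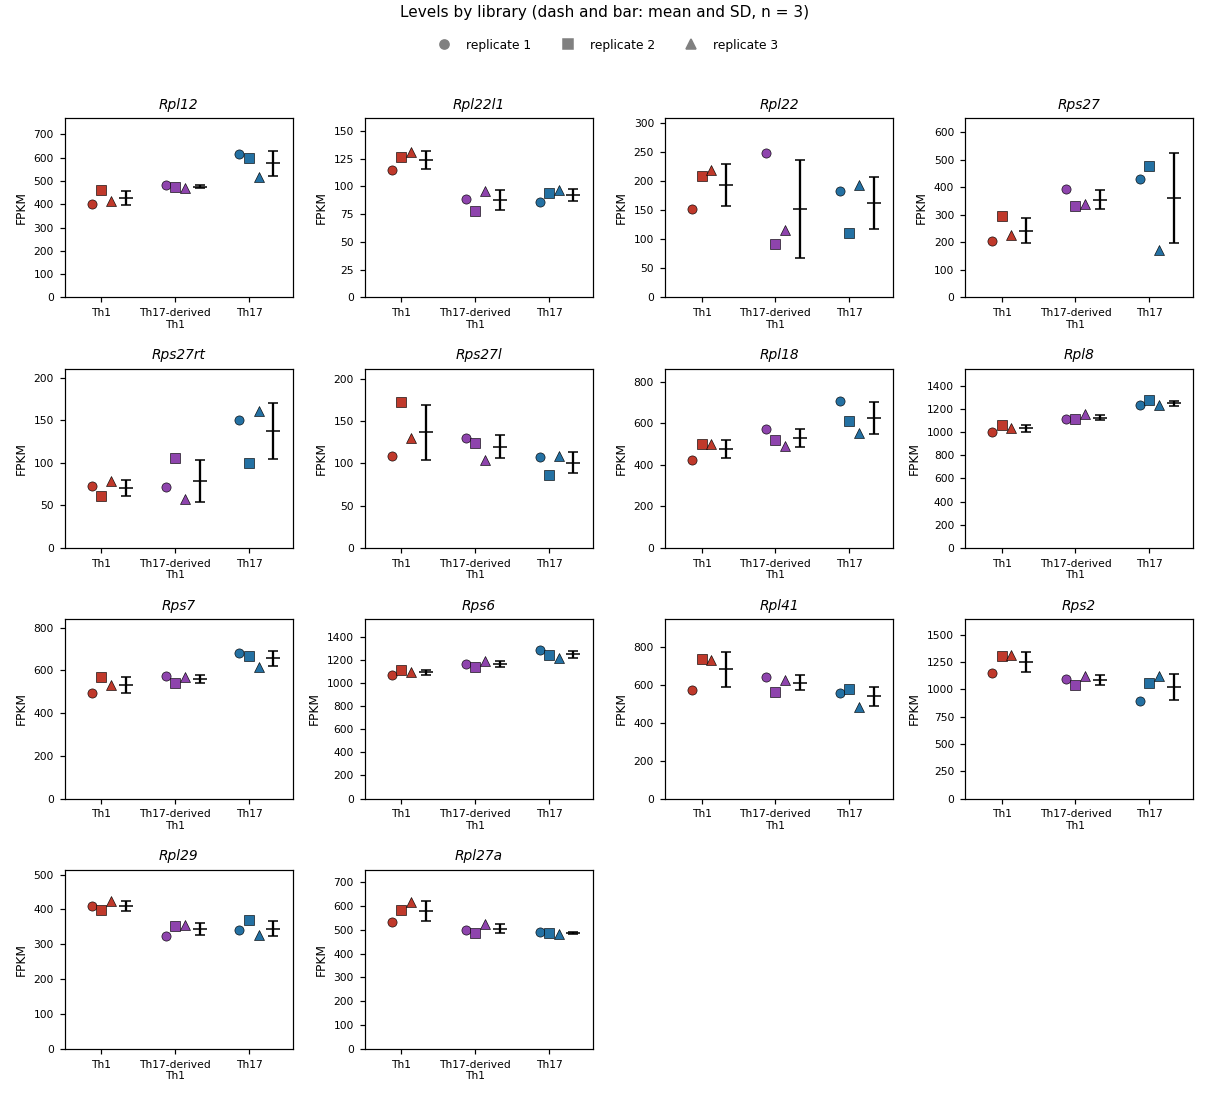
FPKM in each library (points, shape by replicate) with the group mean and SD (n = 3) for 11 of the 13 members called between Th1 and Th17 and for Rpl22, Rps27 and Rps27l. Th1 libraries lie above all other libraries for Rpl22l1 and below all others for Rpl12 and Rpl8; Rps27 in Th17 replicate 3 is the lowest of its 9 values.

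The 5S particle genes Rpl5 and Rpl11, whose proteins bind 5S ribosomal RNA and, when free, hold MDM2 away from p53, did not pass. Rpl5 was at 385, 400 and 378 FPKM in Th1, 457, 451 and 406 in Th17 and 385, 378 and 408 in Th17-derived Th1 (-0.17 for Th1 against Th17, 95% interval -0.345 to -0.003, adjusted p = 0.0918). Rpl11 lay between 590 and 668 FPKM in all libraries, with a difference of -0.009 (95% interval -0.177 to 0.158, adjusted p = 0.929). Among 9 genes around the tunnel exit 0 passed (1 with an unadjusted p below 0.05, limma). Of 18 genes linked to Diamond-Blackfan anemia, 0 were higher and 2 lower (Rpl18 and Rps7), 11.1% against 42.9% of all tested genes.

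The remaining paralogs that were tested did not pass. Rpl36al, at 138 to 187 FPKM over the 9 libraries, stood below its partner Rpl36a at 212 to 296, and differed by 0.042 (adjusted p = 0.790) between Th1 and Th17. Rpl7l1, which acts in assembly of the large subunit, was at 19.0 to 34.9 FPKM (-0.18, adjusted p = 0.518). Rps19bp1 was at 7.27 to 15.5 FPKM (-0.45, 95% interval -1.02 to 0.113, adjusted p = 0.169). Among the 7 pseudogene rows, which the set leaves out, Rps12-ps3 was listed at 580 to 736 FPKM, above Rps12 at 459 to 627, and its sequence held all 396 coding bases of Rps12. Rpl9-ps6, with 575 of 576 bases of Rpl9, was listed at 90.9 to 115 FPKM. Rps12 and Rpl9 values are uncertain for that reason. The 4 pseudogene rows that were tested had adjusted p of at least 0.171 in all comparisons.

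The second comparison asked how Th17-derived Th1 cells differ from cells kept as Th17. No member passed with limma: 0 were higher and 0 lower of 83, where 15.9% of all tested genes were called (6.43% higher and 9.49% lower), and 9 members had an unadjusted p below 0.05. The median difference of members was -0.057, against -0.121 over all tested genes; it turned to 0.062 under median-ratio scaling. The difference lay within 0.2 of 0 for 71 of 83 members (85.5%), against 45.5% of all genes, and its 95% interval lay within 0.5 for 66 (79.5%), against 42.0%. Libraries of the groups did not overlap for 1 higher and 17 lower members, 21.7% of those tested, against 43.2% of all genes. Against the ribosomal median, which is taken from the members themselves, 0 members passed, where 10.2% of all genes did.

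The nearest to the threshold was Rps27rt, with -0.81 (adjusted p = 0.0500, just above the limit), whose groups overlapped through Th17-derived Th1 replicate 2. Rpl12 lay below the Th17 range in all 3 libraries (-0.27, 95% interval -0.474 to -0.072) but did not pass (adjusted p = 0.0684). Rpl22l1 differed by -0.07 (95% interval -0.295 to 0.151, adjusted p = 0.640). The count of lower members was 0 to 3 over the fits that left out a library, with 3 without Th1 replicate 2, 1 without Th17 replicate 2, Th17 replicate 3 or Th17-derived Th1 replicate 2, and 10 under quantile normalization. The mitochondrial ribosomal protein genes had 2 higher and 3 lower of 78.

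The third comparison set Th17-derived Th1 against cells grown as Th1 from the start. It shares its libraries with the first 2 comparisons, so the results are given side by side and not as separate support. Of 83 members, 0 were higher and 1 was lower, against 10.5% of all tested genes called (5.67% higher and 4.81% lower), and 5 had an unadjusted p below 0.05. The lower member was Rpl22l1, with a mean of 87.9 ± 9.08 FPKM in Th17-derived Th1 and 124 ± 8.18 in Th1 (SD, n = 3), a difference of -0.49 (SE 0.0987, adjusted p = 0.0163) and of -0.54 against the ribosomal median (adjusted p = 0.0258), the single member off the ribosomal median, where 6.96% of all genes were called. The call did not pass without Th1 replicate 3, Th17-derived Th1 replicate 1 or Th17-derived Th1 replicate 2 (adjusted p up to 0.0762), or without the 3 libraries with the most Cd8a. Rpl22l1 in Th17-derived Th1 thus overlapped the Th17 libraries and lay below all Th1 libraries, while summed Ifng and Tbx21 in the same cells lay above all Th17 libraries.

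The median difference of the members from Th1 was 0.022, against 0.051 over all tested genes, and it was -0.031 under median-ratio scaling. It lay within 0.2 of 0 for 72 of 83 members (86.7%), against 53.1% of all genes. Libraries of the groups did not overlap for 10 higher and 8 lower members, 21.7% of those tested, against 29.2% of all genes. Rpl12 differed by 0.16 (95% interval -0.041 to 0.362, adjusted p = 0.293), Rps27rt by 0.11 (95% interval -0.434 to 0.651, adjusted p = 0.811) and Rps27 by 0.56 (95% interval -0.194 to 1.31, adjusted p = 0.328). Rps27 was higher than in Th1 in all 3 libraries, but the spread estimated over all groups was wide, with its Th17 libraries running from 173 to 480 FPKM.

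**Figure D5:**
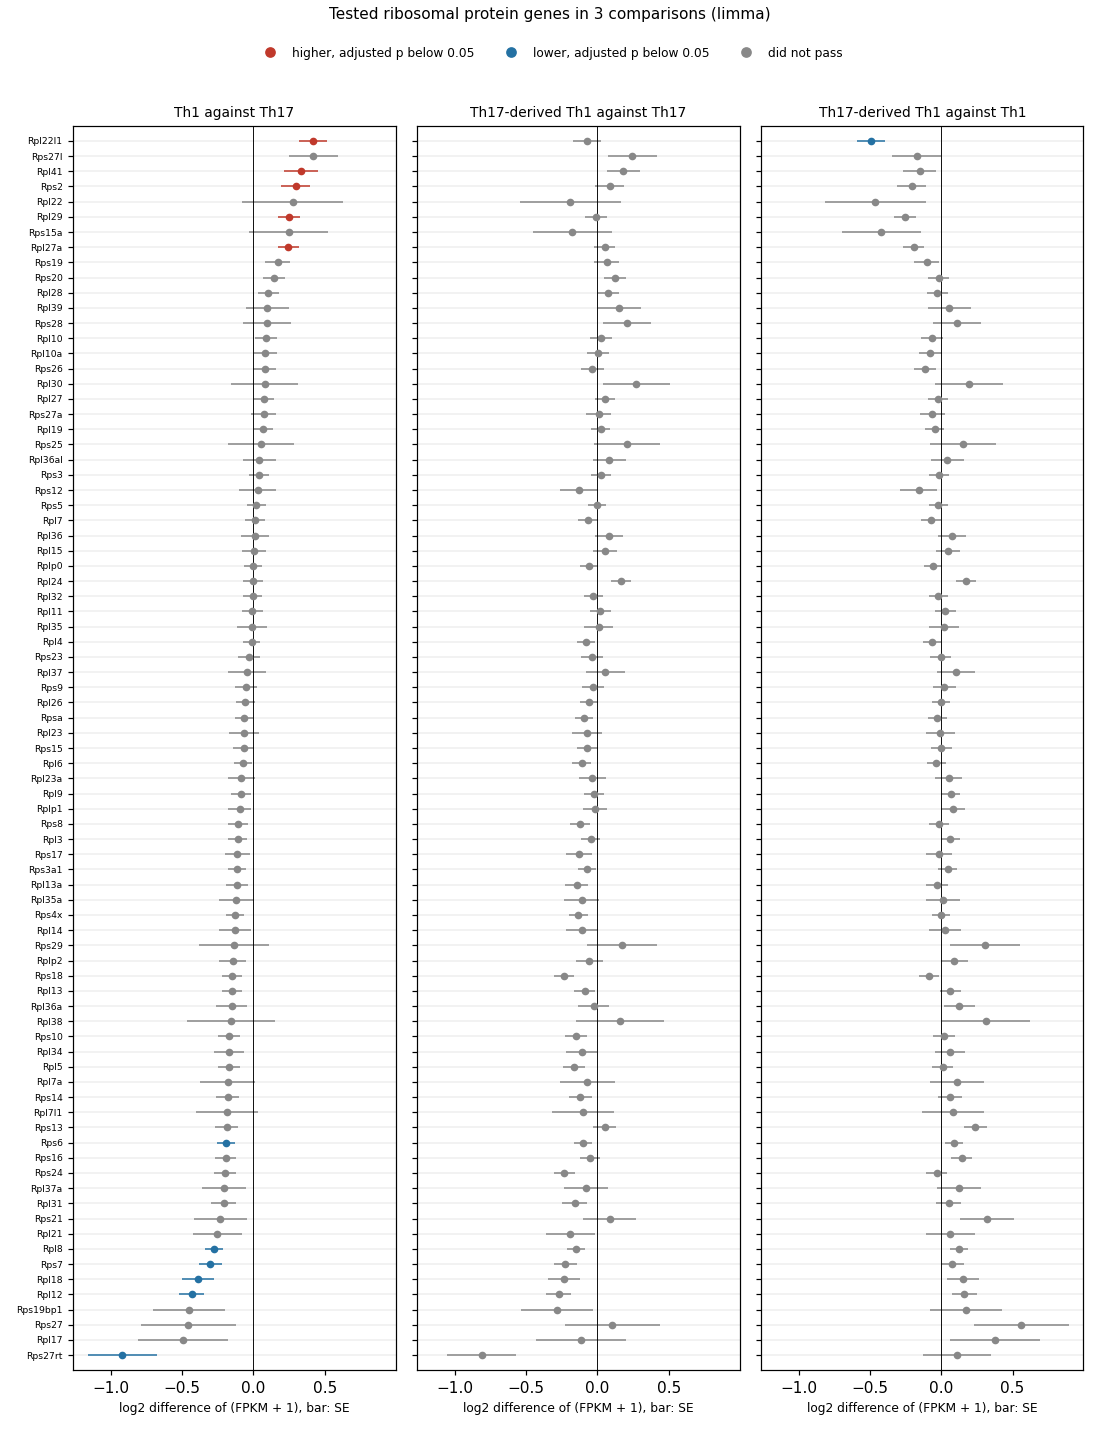
Log2 differences of (FPKM + 1) with SE for tested ribosomal protein genes in the 3 comparisons, in the order of the first; red and blue mark genes higher or lower at an adjusted p below 0.05, grey those that did not pass. Of the genes plotted, colour is seen for 11 in the first panel, 0 in the second and 1 (Rpl22l1) in the third.

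Other parts of the translation machinery, in lists chosen with earlier results of these data known, gave the following counts. Fau and Rack1, ribosome components that the symbol rule does not reach, passed in no comparison (0 with an unadjusted p below 0.05, limma). In Th1 against Th17, where 42.9% of all tested genes were called, 12.5% of 24 elongation factor and other TOP-mRNA genes passed. Of these, 0 rose and 3 fell: Eif3e (-0.31, adjusted p = 0.0139), Eif3l (-0.25, 0.0454) and Eif4b (-0.22, 0.0323). None passed in the comparisons with Th17-derived Th1, where 3 (against Th17) and 1 (against Th1) had an unadjusted p below 0.05. Among 28 initiation factor genes (7.14% called), Eif1, which guards start codon choice, was higher (0.28, adjusted p = 0.0186), and Eif4a2, a helicase of the cap-binding complex, was lower, at 80.6 FPKM in Th1, 158 in Th17 and 113 in Th17-derived Th1 (-0.94, adjusted p = 0.00141).

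Genes of ribosomal protein chaperoning and subunit assembly ranged from -1.28 to 1.16 in the difference of Th1 from Th17. Of 32 tested, 1 rose and 7 fell in Th1 relative to Th17, 25% against 42.9% of all tested genes. Their median was -0.441, against -0.169 over all genes. Mdn1, the AAA ATPase that strips factors from the maturing large subunit, was at 3.48, 7.86 and 3.78 FPKM in Th1 and 13.3, 12.7 and 12.8 in Th17 (-1.28, adjusted p = 0.00597). Ltv1 and Nob1, both of late small subunit maturation, differed by -0.83 and -0.71 (adjusted p = 0.0332 and 0.0175). Ltv1 was at 6.28, 14.3 and 8.07 FPKM in Th1 and Nob1 at 13.1, 21.2 and 14.0, so Th1 replicate 2 was the highest Th1 library for all 3 genes, below every Th17 library. Riok1, an atypical kinase of the same step, went the other way. It was at 47.5 FPKM in Th1, 20.6 in Th17 and 43.1 in Th17-derived Th1, higher than in Th17 by 1.16 in Th1 and by 1.04 in Th17-derived Th1 (adjusted p = 0.000924 and 0.00378).

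Of 29 genes of the mTORC1, LARP1 and S6 kinase pathway, 4 rose and 6 fell in Th1 relative to Th17, 34.5% against 42.9% of all tested genes. Those lower included Mtor, the kinase (-0.26, adjusted p = 0.0308), its partner Rptor (-0.62, 0.00373), Akt1s1, an inhibitor of mTORC1 (-0.57, 0.00642), and Eif4ebp2, a repressor of cap binding (-0.79, 0.000794). Those higher were Ddit4 (0.43, 0.0161) and Sesn2 (1.23, 0.000387), both known as inhibitors of mTORC1, and Lamtor1 (0.35, 0.00911) and Rragc (0.33, 0.0109), both known to bring mTORC1 to the lysosome. Inhibitors and activators were thus found in both directions. Larp1 itself differed by 0.024 (adjusted p = 0.928). Of 16 genes of ribosome quality control and turnover, 1 was higher and 6 lower, 43.8% against 42.9% of all tested genes. Among the lower were Usp10 (-0.89, 0.0117) and Zfp598 (-0.56, 0.00256), which act on ubiquitin marks of stalled ribosomes. Against Th17, the converted cells had Zfp598 lower as well (-0.44, adjusted p = 0.0178), the single one of the 16 to pass. In Th17-derived Th1, 2 assembly genes and 1 mTORC1 pathway gene were higher than in Th17 and 0 of either lower. Relative to Th1, 1 assembly gene was higher and 0 lower, and 2 mTORC1 pathway genes were higher and 1 lower. No initiation factor gene passed in either comparison (2 in each with an unadjusted p below 0.05, limma).

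In the list of p53 and MDM2 genes, 7 of 12 tested genes rose and 0 fell in Th1 relative to Th17, 6 were higher and 0 lower in Th17-derived Th1 than in Th17, and 0 higher and 5 lower in Th17-derived Th1 than in Th1. These are 58.3%, 50% and 41.7% of the list, against 42.9%, 15.9% and 10.5% of all tested genes. Sesn1 and Sesn2 stand both in this list and in the mTORC1 list, so the lists are not separate. Sesn2 is among the called genes of both lists in all 3 comparisons. Cdkn1a, the p21 cell cycle inhibitor, stood at 215, 342 and 253 FPKM in Th1, 32.5, 33.9 and 52.7 in Th17 and 125, 124 and 144 in Th17-derived Th1, so the 3 groups did not overlap. It was higher by 2.74 in Th1 and by 1.73 in Th17-derived Th1 than in Th17 (adjusted p = 4.46e-05 and 0.00104). Mdm2, the ligase of p53 that free Rpl5 and Rpl11 bind, was at 67.6 FPKM in Th1, 36.4 in Th17 and 62.4 in Th17-derived Th1, higher than in Th17 by 0.88 and 0.76 (adjusted p = 8.17e-05 and 0.000354). Between Th17-derived Th1 and Th1 it differed by -0.115 (adjusted p = 0.367). Trp53 itself was at 79.5, 85.2 and 76.1 FPKM in Th1, Th17 and Th17-derived Th1, with adjusted p of 0.382, 0.246 and 0.722 for Th1 against Th17, Th17-derived Th1 against Th17 and Th17-derived Th1 against Th1. The 13 transcripts encoded by mitochondrial DNA passed in no comparison (0 with an unadjusted p below 0.05, limma).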

How the data were processed

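Messenger RNA of 9 libraries was read from the authors' deposited table of FPKM per gene. HISAT2, DESeq2 and mm10 are named in the submitters' processing notes; tool versions, the annotation and the handling of reads with several matches: not given in the sources used here. Libraries were grouped by their labels. A few genes that count in the totals are not reported here by name. Of 22017 genes, the 10538 that reached 1 FPKM in 3 or more libraries were tested on log2(FPKM + 1) with limma 3.58.1 (R 4.3.3), with a mean-variance trend, all 9 libraries in 1 fit (6 residual degrees of freedom), two-sided, Benjamini-Hochberg adjustment over all tested genes and a threshold of 0.05. Fold changes are on the log2(FPKM + 1) scale, which understates changes of low genes. A second fit used values minus each library's median over the 77 core genes. Depth per library is unknown, since the commonest step ratio fitted only 0.619% to 1.13% of low genes within 0.01 log2. The fit was tested on simulated data. Positions and coding sequences came from GENCODE transcripts and annotation (GRCm38), and starts from RefSeq (GRCm38.p6).

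Named members were the paralog pairs, stalk and 5S genes, selected single genes, the members with the largest passing differences (8 per direction), those off the ribosomal median (6 per direction), and the 5 highest, lowest and most variable; of other lists up to 4 passing genes per direction were named. Larp1, Trp53, Fau, Rack1, Rpl4, Rps12, Rpl9 and 2 pseudogene rows were named after their values were seen. The members and lists were chosen with earlier results of these data known. Alternatives were other pseudocounts, filters and scalings, the replicate block, 2 groups only, and leaving out libraries; those that leave out several libraries were added after seeing the data.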

Additional observations from a re-analysis of the deposited data

How the results depend on the processing

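For counts and medians, 159 of 213 alternatives gave the same or a near result. Here counts within a set ratio of each other, and medians that moved by less than the library spread, were taken as the same. For single members 2224 of 2340 alternatives were the same, but these include every case that passed in neither fit. In the rest a call was lost in 75, gained in 40 and came with a changed sign in 1. Members higher in Th1 than in Th17 numbered 5 with deposited values, 3 with a loose filter (above 0 FPKM), 1 with equal sums, 14 with median-ratio scaling, 2 with quantile normalization, 1 with only the 2 groups compared, 1 without the 3 libraries with the most Cd8a, and 1 to 5 leaving out a library. Lower members numbered 8, and 18, 2 and 38 with equal sums, median ratio and quantile, and 3 (without Th17 replicate 1) to 17 (without Th17 replicate 3) leaving out a library. The median moved to 0.098 (median ratio) and -0.212 (quantile). For Th17-derived Th1 against Th17, lower members rose from 0 to 2 (pseudocount 5), 1 (at least 5 FPKM), 3 (equal sums), 10 (quantile), 2 (without the 2 libraries with low core medians) and 0 to 3 leaving out a library, and the median moved to 0.062 (median ratio). For Th17-derived Th1 against Th1, higher members numbered 3 with quantile normalization and 0 to 1 leaving out a library (1 without Th1 replicate 2 or Th17 replicate 3), lower members 0 without the Cd8a-rich libraries and 0 to 1 leaving out a library, and the median moved to -0.031 (median ratio) and 0.105 (quantile). Members off the ribosomal median numbered 1, 2, 4, 5 or 12 where they moved from 9 in the first comparison, 0 or 1 in the second and 0 to 2 in the third, leaving out a library. Rpl7 changed sign under quantile normalization (-0.190, adjusted p = 0.0486, limma; 0.009 with deposited values). The causes were not tested. Leaving out a library leaves its group with 2, so the fit relies on the spread pooled over groups. FPKM without counts gives no counting error for any value.

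With the replicate number as a block, 3 members rose and 7 fell in Th1 relative to Th17, 0 and 0 in Th17-derived Th1 than in Th17, and 0 and 1 in Th17-derived Th1 than in Th1. Rps6, Rpl29 and Rpl41 did not pass in Th1 against Th17 with the block (adjusted p = 0.0657, 0.0507 and 0.0730, limma), and it ended no other call of a member on deposited values. Members off the ribosomal median numbered 7, 0 and 1. The labels do not say whether equal numbers mark shared material, and the correlations, whose ranges overlap, cannot decide it. Deviations from group means correlated at -0.178 to 0.659 between libraries of the same number, over tested genes. Between libraries of other numbers the correlations were -0.646 to 0.459. Over the core genes alone these were -0.313 to 0.463 and -0.484 to 0.358, with 0.226, 0.303 and 0.225 for the same numbers of Th17 and Th17-derived Th1. Cd8a was ordered alike by number in each group.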
